A study of Homo sapiens with 6 samples.

Results

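The 30 p53 pathway and target genes described here were taken by gene symbol from a deposited table of 31853 genes, and each symbol matched 1 row. Poly(A) RNA was sequenced from Mon-Mac-6, an established cell line from a human monocytic leukaemia. Treated cells were given 500 nM WD6305, in the series title a METTL3 PROTAC, that is, a degrader that joins its target to a ubiquitin ligase, and control cells were given the vehicle DMSO. RNA was taken after 48 h, with 3 libraries per group, all from this 1 line. Separate cultures are not recorded for them, so the spread behind each p-value is that between libraries and may be technical.

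p53 is a transcription factor that is stabilised by DNA damage and other stress and switches on genes for growth arrest, DNA repair and cell death. MDM2, a ubiquitin ligase and itself a p53 target, brings p53 down again in a feedback loop, with MDM4 as its partner and the phosphatase encoded by PPM1D acting on the kinases upstream. Many of these genes also answer to other factors. METTL3 is the methyltransferase that adds N6-methyladenosine to messenger RNA.

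p53 binds a pair of abutting half-sites, each of 10 bases. The RefSeq promoter windows (GRCh38.p14, 250 bases before to 50 bases after a gene start) cover 24 of the 30 genes, some with several starts, and not GADD45A, PHLDA3, RRM2B, TNFRSF10A, TNFRSF10B or TP53INP1. These windows were searched for the p53 consensus site of 20 bases with at most 3 mismatches and with the core C and G of both half-sites kept. The consensus half-site reads the same on both strands, so 1 search covers both. A match was found in 7 of the 24 genes (SESN1, FAS, DDB2, MDM2, AEN, FDXR and GDF15), against 1.37% of 27305 genes with a window. Counted by window, it was 8 of 37 (21.6%) against 1.12% of 35116, and the 2 matching MDM2 windows share 1 site. A match is a description of these letters, and binding was not measured. The sites of the 3 matched genes that changed, of MDM2 and of DDB2, which came closest to the consensus with 1 mismatch, are shown 5′ to 3′ on the gene's strand, with the 20 matched bases in capitals and flanking bases in lower case:
FAS, chr10:88991309-88991328, plus strand, in an intron, 122 bases before a RefSeq start: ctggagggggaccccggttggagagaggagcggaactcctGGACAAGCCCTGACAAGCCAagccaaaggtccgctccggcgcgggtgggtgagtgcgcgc
AEN, chr15:88621306-88621325, plus strand, in an exon, 34 bases before a RefSeq start: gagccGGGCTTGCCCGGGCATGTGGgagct
FDXR, chr17:74872996-74873015, minus strand, in an exon, 21 bases before a RefSeq start: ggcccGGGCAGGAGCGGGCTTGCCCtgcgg
MDM2, chr12:68808923-68808942, plus strand, in an intron, 94 bases before a RefSeq start: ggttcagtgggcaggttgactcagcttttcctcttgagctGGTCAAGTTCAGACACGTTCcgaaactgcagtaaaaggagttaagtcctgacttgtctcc
DDB2, chr11:47214969-47214988, plus strand, in an exon, from 5 bases before a RefSeq start: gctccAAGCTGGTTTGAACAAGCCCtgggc
Exon and intron are those of GENCODE release 29 on GRCh38, for the listed gene. FAS and AEN had 2 mismatches each, all in the second half-site, FDXR had 3, all in the first, and MDM2 had 2, 1 in each half-site. By call, a match was found in 1 of 5 genes with a window that rose, 2 of 4 that fell and 4 of 13 that did not pass.

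Deposited counts summed to between 64525948 and 71155346 per library. Levels are CPM (counts relative to the scaled library size) or, to set genes side by side, FPKM (which also divides by transcript length). A degrader acts on protein, which was not measured. METTL3 RNA was at 78.2, 76.0 and 79.7 CPM in WD6305 libraries 1, 2 and 3, against 70.5, 64.9 and 66.4 CPM in DMSO libraries 1, 2 and 3 (log2 fold change 0.21, SE 0.05, edgeR adjusted p = 0.0218), and that call was lost without DMSO 2 or any 1 WD6305 library (edgeR adjusted p = 0.0501 to 0.0931), with the replicate number as a block (0.0584) and in the 4 libraries described next (0.0588). Of the monocytic markers 10 of 10 were measured, with a summed level of 5111 to 5907 FPKM under WD6305 and 2987 to 3234 FPKM under DMSO, most of it LYZ. CD14 was at 7.38 to 8.39 FPKM under WD6305 and 9.99 to 10.31 FPKM under DMSO, and MPO at 6.67 to 8.35 FPKM under WD6305 and 9.40 to 10.14 FPKM under DMSO. CD68 was at 88.82 to 100.3 FPKM under WD6305 and 41.25 to 44.63 FPKM under DMSO. ITGAM was at 2.26 to 2.73 FPKM under WD6305 and 1.34 to 1.53 FPKM under DMSO. CSF1R was at 1.68 to 2.27 FPKM under WD6305 and 0.68 to 0.78 FPKM under DMSO. PTPRC (14.61 to 15.44 against 9.35 to 13.16 FPKM) and CD33 (13.47 to 14.12 against 10.8 to 12.04 FPKM) were also higher under WD6305. FCGR1A overlapped between groups, and CD4 was near 0 (0.03 to 0.12 FPKM). Measured lymphocyte markers (3 of 8) summed to 1.14 to 1.32 FPKM under WD6305 and 0.85 to 1.24 FPKM under DMSO, and erythroid and megakaryocyte markers (3 of 6) to 0.08 to 0.51 FPKM under WD6305 and 0.47 to 0.83 FPKM under DMSO. WD6305 1 and DMSO 3 stood apart from the other 4 libraries, which held RNA of the skin keratins KRT5 and KRT14. The keratin KRT5 was at 0.0778, 63.4 and 67.1 CPM in WD6305 libraries 1, 2 and 3, against 79.3, 66.5 and 0.131 CPM in DMSO libraries 1, 2 and 3. The 7 measured keratins and partner genes summed to 2.71 to 31.6 FPKM under WD6305 and 3.07 to 38.8 FPKM under DMSO, with KRT2 at 0 in every library. KRT10, of the same list, did not follow that split, at 2.65, 3.43 and 3.33 FPKM under WD6305 and 2.31, 3.11 and 2.82 FPKM under DMSO. Results are therefore also given for the 4 libraries with KRT5 RNA, WD6305 2 and 3 against DMSO 1 and 2.

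Genes of the p53 pathway moved in both directions under WD6305. Of 28 genes with enough counts to test, 7 rose and 6 fell (edgeR quasi-likelihood test, Benjamini-Hochberg adjusted p under 0.05 over all tested genes). TP53INP1 and FAS, which promote cell death, had the largest rises at 2.96-fold and 2.18-fold, and PHLDA3, an inhibitor of the kinase AKT, had the largest fall at 2.2-fold. The other 10 changes were smaller than 1.5-fold. The background was 12.2% of 18138 tested genes called higher and 11.2% called lower, or 23.4% in either direction, against 13 of 28 here (46.4%). These genes were chosen with earlier results of these data known, so the share describes the list and does not test it. The median log2 fold change of the 28 was -0.02, and that of all tested genes 0.00, while the median absolute value was 0.30 against 0.26. The libraries are bulk, so fewer cells of a type and less RNA per cell cannot be told apart.

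The 13 calls differed in how firmly they stood. TP53INP1, FAS, TNFRSF10B, AEN, PHLDA3, PLK3 and FDXR had the same call under each of 16 alternative settings in which they were tested. MDM4, PPM1D, SUSD6, RRM2B, BTG2 and TP53I3 lost theirs when single libraries were left out. In the 4 libraries with KRT5 RNA, 4 genes rose and 6 fell, against 12.4% and 9.89% of 18467 genes tested there, and these were 10 of the same 13 genes, without PPM1D, SUSD6 and BTG2. In each of the 13 genes every WD6305 library lay on 1 side of every DMSO library, which was true of 21 of the 28 genes (9 above and 12 below) and of 40.8% of all tested genes (20.4% above and 20.3% below). An exact two-sided permutation test of 3 against 3 cannot go below p = 0.1. Any gene without overlap reaches that value, called or not, so the test adds nothing to the separation.

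**Figure D1:**
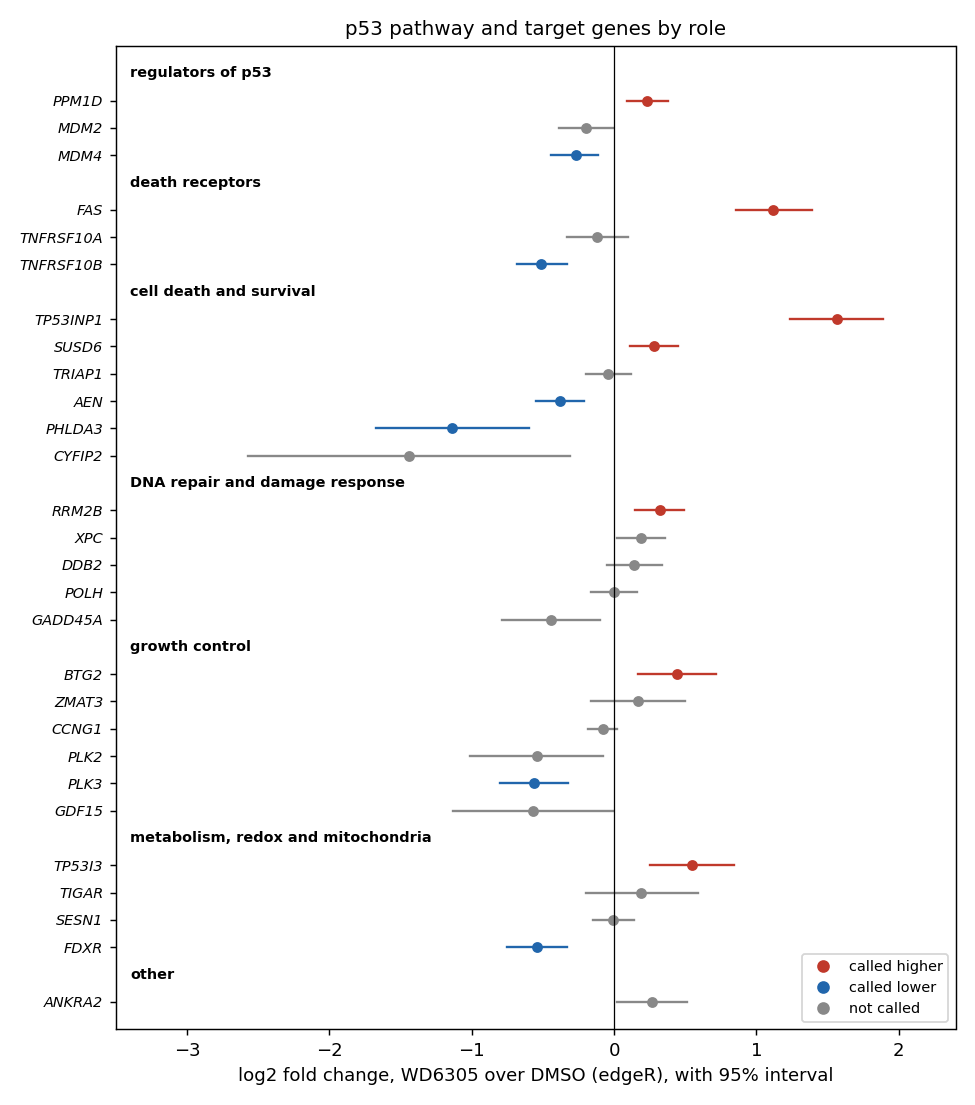
Log2 fold change of WD6305 over DMSO (edgeR, horizontal axis) for the 28 tested p53 pathway and target genes, ordered within role, with lines for the 95% interval and colours for the call. TP53INP1 and FAS lie at 1.57 and 1.12 and PHLDA3 at -1.14, while CYFIP2 has the widest interval and no call.

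Among the regulators of p53, MDM4 fell and PPM1D rose, both by little, and MDM2 did not pass the test. MDM2 was at 2.18, 1.88 and 1.94 FPKM under WD6305, against 2.25, 2.31 and 2.47 FPKM under DMSO. Each WD6305 library lay below each DMSO library, with a log2 fold change of -0.20 (SE 0.08, 95% interval -0.39 to -0.01), but the edgeR adjusted p was 0.114, and it passed under none of the 16 alternatives. MDM4, which binds p53 and restrains it without being an efficient ligase alone, was at 23.7, 23.9 and 23.7 CPM under WD6305, against 29.1, 30.1 and 27.0 CPM under DMSO. Its WD6305 libraries were nearly equal, and its log2 fold change was -0.27 (SE 0.07, edgeR adjusted p = 0.0242). That call was lost without any 1 library other than DMSO 3 (edgeR adjusted p = 0.0686 to 0.0929) and with the replicate number as a block (0.0643). PPM1D was at 39.1, 38.3 and 39.3 CPM under WD6305, against 34.2, 32.4 and 32.8 CPM under DMSO. All 3 treated libraries were higher, with a log2 fold change of 0.23 (SE 0.06, edgeR adjusted p = 0.0281), and the call was lost without DMSO 2 or any 1 WD6305 library (0.0683 to 0.104), with the block (0.0850) and in the 4 libraries with KRT5 RNA (0.071), all edgeR adjusted p. In limma on FPKM, PPM1D had no call either (adjusted p = 0.0568 and 0.0630 with pseudocounts of 0.1 and 1). Reads of MDM2 may be shared with the gene of carboxypeptidase M, which overlaps it on the opposite strand, since no source used here says whether counting used the strand.

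Among the death receptors, membrane proteins of the tumour necrosis factor receptor family that can start apoptosis when bound by a ligand, FAS rose and TNFRSF10B fell. FAS, the receptor of FAS ligand, lies on the plus strand of chromosome 10 from 88953813 to 89029605 (GRCh38) and was at 12.5, 12.6 and 13.1 CPM under WD6305, against 5.46, 5.32 and 6.73 CPM under DMSO. The groups were far apart relative to their spread, with means of 12.7 ± 0.288 CPM under WD6305 and 5.84 ± 0.779 CPM under DMSO (SD, n = 3 each), a log2 fold change of 1.12 (SE 0.12) and an edgeR adjusted p of 0.000308. Its intronic site is among those shown above. Per transcript length FAS was among the lowest, at 0.40, 0.40 and 0.41 FPKM under WD6305 and 0.17, 0.17 and 0.22 FPKM under DMSO. That rank rests on the length used for FAS and does not hold by counts. TP53I3, at 12.4, 15.9 and 15.8 CPM under WD6305, had 5.0, 6.46 and 6.37 FPKM there. FAS overlaps STAMBPL1 on the same strand and ACTA2 on the opposite strand, at means of 0.91 and 0.732 FPKM against 0.295 FPKM for FAS. Part of its reads may therefore not be its own. TNFRSF10B, a receptor of the ligand TRAIL, was at 24.8, 28.9 and 26.5 CPM under WD6305, against 39.3, 38.1 and 36.6 CPM under DMSO. It fell by 0.51 on the log2 scale (SE 0.08, edgeR adjusted p = 0.00212), and the groups did not overlap. Part of its reads may belong to RHOBTB2, which overlaps it on the opposite strand. TNFRSF10A, the other full-length TRAIL receptor, was at 18.5, 19.6 and 16.1 CPM under WD6305, against 20.6, 19.9 and 18.2 CPM under DMSO, with overlapping groups and a log2 fold change of -0.12 (95% interval -0.33 to 0.10, edgeR adjusted p = 0.444). Whether the fold changes of TNFRSF10A and TNFRSF10B differ from each other was not tested. EDA2R, the receptor of an ectodysplasin form, had counts of 0, 8 and 7 under WD6305 and 0 in each DMSO library, and was too low to test.

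TNFRSF10A and TNFRSF10B have neighbouring genes that encode decoy receptors, which bind TRAIL and do not pass on the death signal. The decoy gene TNFRSF10D was at 13.2, 10.4 and 12.6 CPM under WD6305, against 18.3, 20.4 and 20.1 CPM under DMSO and fell by 0.70 on the log2 scale (SE 0.11, edgeR adjusted p = 0.00191), with no overlap between groups. The decoy gene TNFRSF10C was low, at 1.81, 2.3 and 2.08 CPM under WD6305, against 1.79, 1.61 and 1.83 CPM under DMSO, and did not pass the test (log2 fold change 0.24, edgeR adjusted p = 0.448). Of the 4 TRAIL receptor genes, TNFRSF10B and TNFRSF10D therefore fell and TNFRSF10A and TNFRSF10C did not pass.

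Genes of cell death and survival included the largest change among the 30. TP53INP1 encodes a protein that promotes p53-dependent cell death and autophagy. It was at 8.44, 9.29 and 9.39 CPM under WD6305, against 2.86, 3.56 and 2.73 CPM under DMSO. The lowest treated library was more than double the highest control library, and the means were 9.04 ± 0.523 CPM under WD6305 and 3.05 ± 0.443 CPM under DMSO (SD, n = 3 each). The log2 fold change was 1.57 (SE 0.14, edgeR adjusted p = 0.000172), larger in size than that of 97.9% of tested genes, and it rose in the 4 libraries with KRT5 RNA too (edgeR adjusted p = 0.00135). NDUFAF6 overlaps it on the opposite strand at a mean of 1.07 FPKM, against 1.0 FPKM for TP53INP1. Part of the TP53INP1 reads may therefore not be its own.

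AEN, an exonuclease that degrades DNA in apoptosis, and PHLDA3 both fell. AEN was at 31.9, 34.8 and 34.6 CPM under WD6305, against 45.0, 45.9 and 40.7 CPM under DMSO, and its log2 fold change was -0.38 (SE 0.07, edgeR adjusted p = 0.00696). PHLDA3 was low and uneven among controls, at 1.77, 1.58 and 2.16 CPM under WD6305, against 4.6, 4.68 and 2.87 CPM under DMSO. DMSO 3, which has almost no KRT5 RNA, was nearer to the treated libraries than DMSO 1 and 2 were. The log2 fold change of PHLDA3 was -1.14 (SE 0.24, edgeR adjusted p = 0.00849) over all 6 libraries and -1.31 (SE 0.23, edgeR adjusted p = 0.00684) in the 4 with KRT5 RNA. The part of the material that holds KRT5 in these values was not tested.

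SUSD6, a membrane protein induced by DNA damage, was at 41.2, 42.2 and 38.7 CPM under WD6305, against 31.1, 35.5 and 34.1 CPM under DMSO. It rose by a log2 fold change of 0.28 (SE 0.08, edgeR adjusted p = 0.0285), and the call was lost without DMSO 1 or any 1 WD6305 library (0.0560 to 0.0988), with the block (0.0692) and in the 4 libraries with KRT5 RNA (0.0681), all edgeR adjusted p. It was lost in limma on FPKM too (adjusted p = 0.0529 and 0.0533). TRIAP1, a small mitochondrial protein that restrains apoptosis, was at 30.0, 30.1 and 30.9 CPM under WD6305, against 33.2, 30.5 and 29.9 CPM under DMSO, with overlapping groups and an interval of -0.20 to 0.12 on the log2 scale. CYFIP2, a subunit of the WAVE complex that governs actin, was barely expressed, with counts of 19, 8 and 16 under WD6305 and 32, 42 and 48 under DMSO. Its log2 fold change of -1.44 had an interval from -2.57 to -0.31 and did not pass (edgeR adjusted p = 0.0688), and the DMSO group was the one in which all 3 libraries reached the count filter.

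**Figure D2:**
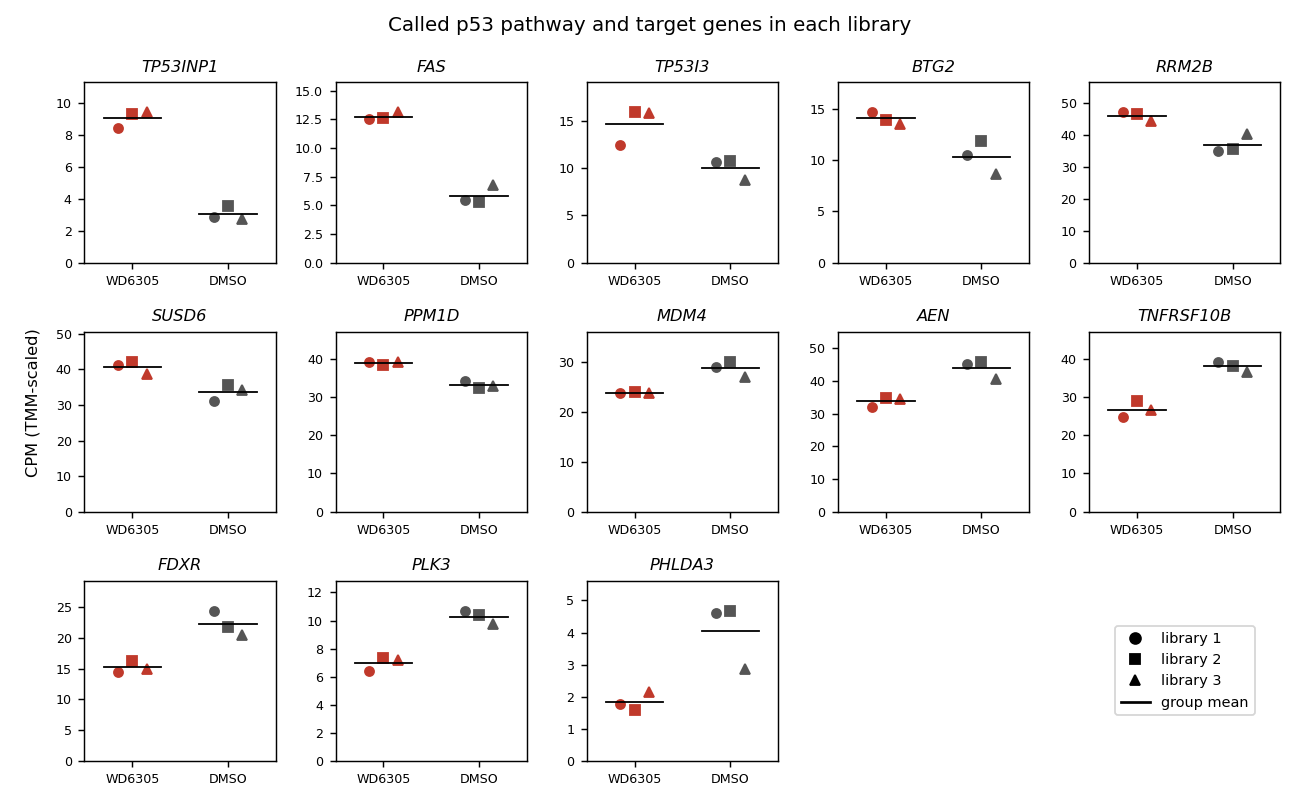
TMM-scaled CPM (vertical axis, from 0) of the 13 called genes in each library, WD6305 left and DMSO right, with a marker shape per library number and a line at the group mean. In all 13 genes the groups do not overlap, and the fitted folds are 2.96 for TP53INP1 and 2.18 for FAS.

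Of 5 genes of DNA repair and the damage response, 1 rose and 4 did not pass (20% called, against 23.4% of all tested genes). RRM2B, the ribonucleotide reductase subunit that supplies DNA building blocks outside S phase, was at 47.0, 46.4 and 44.3 CPM under WD6305, against 34.9, 35.5 and 40.1 CPM under DMSO. DMSO 3 was the highest control, and the log2 fold change was 0.32 (SE 0.07, edgeR adjusted p = 0.0152). The call was narrowly lost without WD6305 1, WD6305 2, DMSO 1 or DMSO 2 (edgeR adjusted p = 0.0506 to 0.0555) and with the block (0.0556).

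GADD45A, a stress sensor that binds PCNA and cyclin-dependent kinase 1, was at 4.64, 5.65 and 5.21 CPM under WD6305, against 7.47, 7.84 and 5.77 CPM under DMSO. Each treated library was lower than each control library, by a narrow margin to DMSO 3. The log2 fold change of -0.44 (SE 0.15) did not pass in edgeR (adjusted p = 0.068). It passed in DESeq2 (adjusted p = 0.0395), in limma on FPKM (0.0473 and 0.0489), among genes with a mean FPKM of at least 1 (edgeR adjusted p = 0.0464) and without DMSO 3 (0.0224). In 11 of the 16 alternatives it had no call, with an edgeR adjusted p of up to 0.206 (without DMSO 2).

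The nucleotide excision repair genes XPC and DDB2, which encode the sensors of damaged DNA, had log2 fold changes of 0.19 and 0.14 that did not pass (edgeR adjusted p = 0.0951 and 0.286). XPC was at 36.5, 37.2 and 33.6 CPM under WD6305, against 31.4, 29.7 and 32.7 CPM under DMSO, without overlap. DDB2, whose site came closest to the p53 consensus, was at 25.5, 26.7 and 28.6 CPM under WD6305, against 25.9, 25.1 and 22.1 CPM under DMSO, with overlap. POLH, the polymerase that copies past ultraviolet lesions, was at 38.4, 43.4 and 40.3 CPM under WD6305, against 42.2, 39.9 and 39.8 CPM under DMSO, and its interval of -0.16 to 0.16 on the log2 scale bounds any difference to well under 1.5-fold. GTPBP2 overlaps POLH on the opposite strand at a mean of 18.9 FPKM, so part of the POLH counts may not be its own.

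Of 6 genes of growth control, BTG2 rose, PLK3 fell and 4 did not pass (33.3% called, against 23.4% of all tested genes). PLK3, a polo-like kinase of the stress response, was at 6.41, 7.33 and 7.2 CPM under WD6305, against 10.7, 10.4 and 9.73 CPM under DMSO. The groups were well separated, with a log2 fold change of -0.56 (SE 0.10, edgeR adjusted p = 0.00531). Its relative PLK2 was lower and more scattered, at 2.6, 2.03 and 2.49 CPM under WD6305, against 3.28, 4.24 and 2.87 CPM under DMSO, and its log2 fold change of -0.54 (SE 0.20) did not pass (edgeR adjusted p = 0.0877). BTG2, an antiproliferative factor that works with the CCR4-NOT deadenylase, was at 14.7, 14.0 and 13.6 CPM under WD6305, against 10.5, 11.9 and 8.71 CPM under DMSO. DMSO 3 was the lowest library, and the log2 fold change of 0.44 (SE 0.12, edgeR adjusted p = 0.0276) lost its call without any 1 library other than DMSO 2 (0.0507 to 0.0935), with no filter on low counts (0.0669) and in the 4 libraries with KRT5 RNA, where it was 0.30 (0.118, edgeR adjusted p in each).

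CCNG1, the cyclin G1 gene, was the most abundant of the 30 per transcript length, at 29.6, 30.5 and 30.1 FPKM under WD6305 and 32.2, 32.5 and 32.3 FPKM under DMSO. The treated libraries were lower without overlap, but by a log2 fold change of only -0.08 (95% interval -0.18 to 0.02, edgeR adjusted p = 0.234). ZMAT3, an RNA-binding regulator of splicing, was at 6.23, 6.57 and 6.65 CPM under WD6305, against 6.83, 4.98 and 5.47 CPM under DMSO, with overlap and no call (edgeR adjusted p = 0.454). GDF15, a secreted stress cytokine, was at 1.12, 1.12 and 1.27 CPM under WD6305, against 1.37, 2.11 and 1.76 CPM under DMSO. All treated libraries were lower, and the log2 fold change of -0.57 (SE 0.25) did not pass (edgeR adjusted p = 0.131).

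Genes of metabolism and mitochondria split as well. TP53I3, a quinone oxidoreductase linked to oxidative stress, was at 12.4, 15.9 and 15.8 CPM under WD6305, against 10.6, 10.8 and 8.76 CPM under DMSO. WD6305 1 was the lowest treated library, and the log2 fold change was 0.55 (SE 0.13, edgeR adjusted p = 0.0155). The call was lost without WD6305 2 or 3 (edgeR adjusted p = 0.0641 to 0.0689) and held in the 4 libraries with KRT5 RNA (0.00932). FDXR, the mitochondrial ferredoxin reductase used in steroid and iron-sulphur cluster synthesis, was at 14.4, 16.3 and 15.0 CPM under WD6305, against 24.4, 21.7 and 20.4 CPM under DMSO. It fell by 0.54 on the log2 scale (SE 0.09, edgeR adjusted p = 0.00341), with no overlap.

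SESN1, a sestrin that restrains the growth kinase mTORC1, was at 36.1, 38.0 and 36.5 CPM under WD6305, against 36.0, 37.4 and 37.9 CPM under DMSO, and the interval of its log2 fold change was -0.15 to 0.14. TIGAR, a phosphatase that lowers glycolytic flux, was at 4.47, 5.9 and 4.45 CPM under WD6305, against 3.69, 4.36 and 4.93 CPM under DMSO, with overlap and a wider interval of -0.20 to 0.59. SPATA18, a mitochondrial quality control protein, had counts of 0, 14 and 9 under WD6305 and 7, 16 and 0 under DMSO. It did not pass the count filter over all 6 libraries. All its counts were near the floor, and its libraries at 0 were WD6305 1 and DMSO 3, the pair with almost no KRT5 RNA. EDA2R was at 0 in both of these and in DMSO 1 and 2 as well. ANKRA2, an ankyrin repeat protein, was at 8.03, 7.83 and 8.08 CPM under WD6305, against 7.09, 6.29 and 6.53 CPM under DMSO, without overlap, and did not pass (log2 fold change 0.27, edgeR adjusted p = 0.106), and UTP15 overlaps it on the opposite strand.

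Per transcript length, most of the 30 genes were at low to moderate levels. Under DMSO 2 of the 30 genes had a mean of at least 10 FPKM (CCNG1 and TRIAP1), 19 lay between 1 and 10 FPKM and 9 lay under 1 FPKM. Both TP53INP1 and FAS, the largest rises, were low by FPKM, with means of 1.5 and 0.403 under WD6305 and 0.51 and 0.187 under DMSO. By CPM, FAS lay above TP53INP1, at means of 12.7 against 9.04 under WD6305 and 5.84 against 3.05 under DMSO. PHLDA3, the largest fall, was low too, at means of 0.53 FPKM under WD6305 and 1.18 FPKM under DMSO. Neighbours in the order such as AEN, TNFRSF10B, TNFRSF10A and SUSD6, at means of 6.13, 6.10, 6.06 and 6.01 FPKM over all 6 libraries, differed by less than the range of each of them across the libraries.

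**Figure D3:**
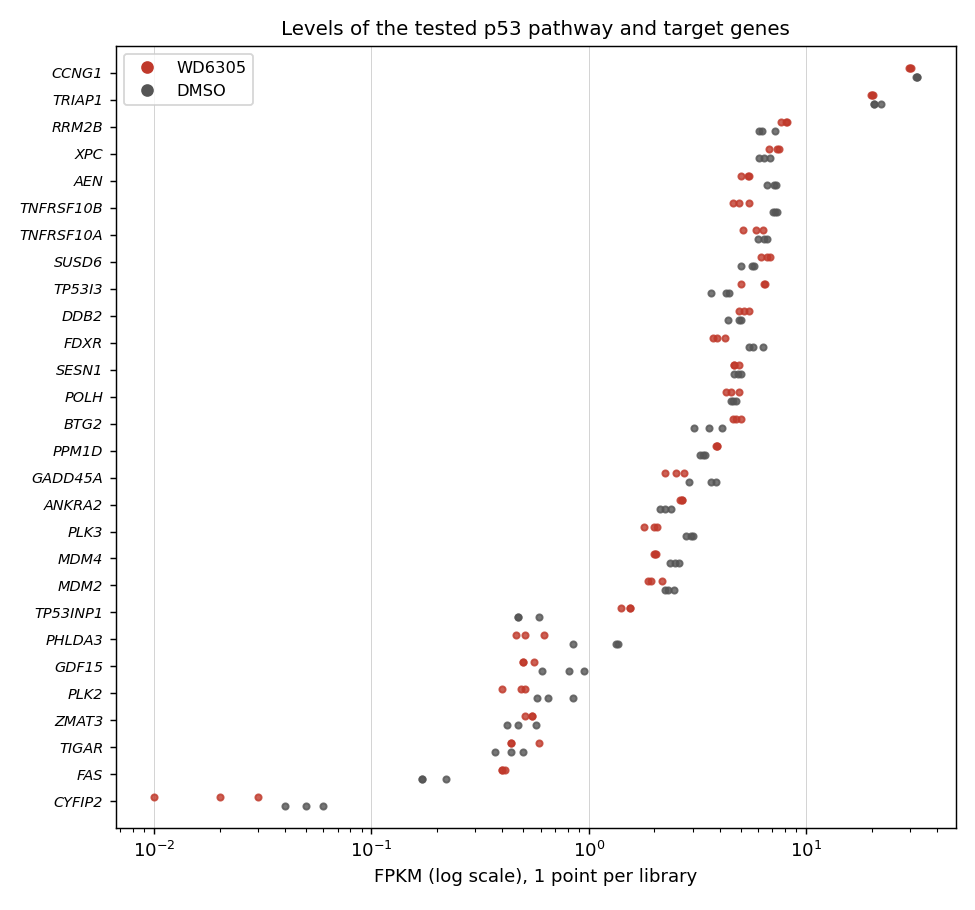
FPKM (log axis) of the 28 tested genes in each library, WD6305 above DMSO within a row, ordered by mean level. CCNG1 and TRIAP1 stand at the top, above 19 FPKM in every library, and CYFIP2 at the bottom, below 0.1 FPKM; EDA2R and SPATA18 are left out because libraries are listed at 0.

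Of 22 relatives and upstream regulators of p53, all tested, 4 fell and 1 rose, or 22.7% called against 23.4% of all tested genes. TP73, the p53 relative, was at 6.18, 5.7 and 6.54 CPM under WD6305, against 10.9, 12.7 and 8.81 CPM under DMSO and fell by 0.82 on the log2 scale (edgeR adjusted p = 0.00423). PRMT5, an arginine methyltransferase that modifies p53, had a log2 fold change of -0.62 (edgeR adjusted p = 0.000132). RPL5 and RPL11, ribosomal proteins that bind MDM2 when ribosome assembly fails, had -0.30 and -0.21 (edgeR adjusted p = 0.0037 and 0.0256), and RPL11 lost its call without any 1 library other than DMSO 3 (0.0589 to 0.0906), with the block (0.0779) and with no filter on low counts (0.0558). KAT5, an acetyltransferase of p53 and ATM, rose by 0.18 on the log2 scale (edgeR adjusted p = 0.0213), which was lost without DMSO 1 or any 1 WD6305 library (0.0501 to 0.0876) and with the block (0.0566). The damage kinases ATM, ATR, CHEK1 and CHEK2 did not pass, with log2 fold changes of 0.24, 0.21, 0.07 and -0.15, nor did CDKN2A, whose ARF product inhibits MDM2, at 0.10. ATM and ATR passed without DMSO 3 (edgeR adjusted p = 0.00106 and 0.00933) and when WD6305 1 was left out with it (0.00151 and 0.0259). In the 4 libraries with KRT5 RNA, 3 genes of this list rose and 5 fell, against 12.4% and 9.89% of all genes tested there.

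Among 40 further targets of p53, 39 were tested, 9 rose and 5 fell, or 35.9% called against 23.4% of all tested genes, with a median log2 fold change of -0.06. This list, too, was chosen with earlier results of these data known, so its share is a description. In the 4 libraries with KRT5 RNA, 9 of them rose and 8 fell, against 12.4% and 9.89% of all genes tested there. CDKN1A, which encodes the kinase inhibitor p21 and is the best known p53 target, was at 6.99, 9.01 and 9.27 CPM under WD6305, against 14.8, 16.6 and 13.6 CPM under DMSO. It fell by 0.83 on the log2 scale (SE 0.13, edgeR adjusted p = 0.0024). The apoptotic targets BAX, BBC3 and PMAIP1 did not pass, at -0.22, -0.40 and 0.14 on the log2 scale (edgeR adjusted p = 0.191, 0.131 and 0.258). ORAI3, a calcium channel subunit, was at 54.1, 58.0 and 59.6 CPM under WD6305, against 32.7, 32.6 and 24.3 CPM under DMSO and rose 1.92-fold (edgeR adjusted p = 0.000674). APAF1, the core of the apoptosome, NADSYN1, an enzyme of NAD synthesis, TRIM22, an interferon-induced ligase, and NINJ1, which ruptures the membrane of dying cells, rose by 0.40, 0.37, 0.50 and 0.42 on the log2 scale. CCDC90B, RAP2B, TM7SF3 and FBXO22 rose by 0.30, 0.29, 0.20 and 0.25. RAP2B lost its call without any 1 WD6305 library (edgeR adjusted p = 0.0515 to 0.0577), TM7SF3 without WD6305 2, WD6305 3 or DMSO 1 (0.0581 to 0.0939), and FBXO22 without WD6305 1, WD6305 2, DMSO 1 or DMSO 2 (0.0591 to 0.0757), with the block (0.0655), in the 4 libraries (0.0585) and in limma (adjusted p = 0.0682 and 0.0721). TRAF4 and CDIP1 had log2 fold changes of -0.66 and -0.30, and TNFRSF10D is given above. CDIP1 lost its call without WD6305 1, WD6305 3, DMSO 1 or DMSO 2 (edgeR adjusted p = 0.0513 to 0.0904), and CCDC90B without WD6305 1 or 3 (0.0531 to 0.0563) and with the block (0.0503).

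**Figure D4:**
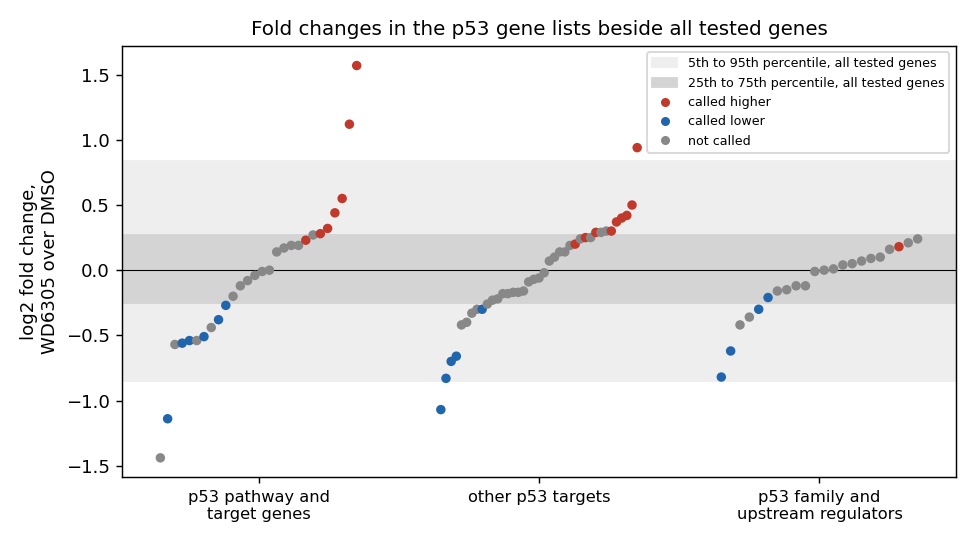
Log2 fold change of WD6305 over DMSO (vertical axis), 1 point per tested gene, for the 28 p53 pathway and target genes, 39 other p53 targets and 22 relatives and upstream regulators, each sorted by value. Grey bands mark the 25th to 75th (-0.25 to 0.27) and 5th to 95th percentile (-0.85 to 0.84) of all tested genes, and points lie on both sides of 0 in each list.

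SFN, PERP and TP63 were lowest in the pair of libraries with almost no KRT5 RNA. SFN, a 14-3-3 protein of epithelial cells, had counts of 54, 760 and 689 under WD6305, against 885, 856 and 184 under DMSO. PERP, a desmosome-associated protein, was at 0.98, 8.37 and 8.61 CPM under WD6305, against 10.3, 9.08 and 1.7 CPM under DMSO, and TP63, the p53 relative of stratified epithelium, at 0.125, 2.09 and 2.61 CPM under WD6305, against 2.24, 2.06 and 0.349 CPM under DMSO. Each was higher in the other 4 libraries, of both groups. None passed the test over all 6 libraries (edgeR adjusted p = 0.816, 0.872 and 0.976) or over the other 4 (0.19, 0.373 and 0.765). PTP4A1, a phosphatase and p53 target, was at 51.3, 40.1 and 37.4 CPM under WD6305, against 107, 115 and 49.1 CPM under DMSO. DMSO 3 lay among the treated libraries, and the log2 fold change of -1.07 (SE 0.28, edgeR adjusted p = 0.0228) was -1.52 (SE 0.07, edgeR adjusted p = 0.000135) in the 4 libraries with KRT5 RNA. Over 6 libraries, leaving out WD6305 2, WD6305 3, DMSO 1 or DMSO 2 ended its call (edgeR adjusted p = 0.0805 to 0.0931), as did keeping genes of low counts (0.0800) and limma on FPKM (0.0557 and 0.0560). The part of the material that holds KRT5 in these 4 genes was not tested.

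**Figure D5:**
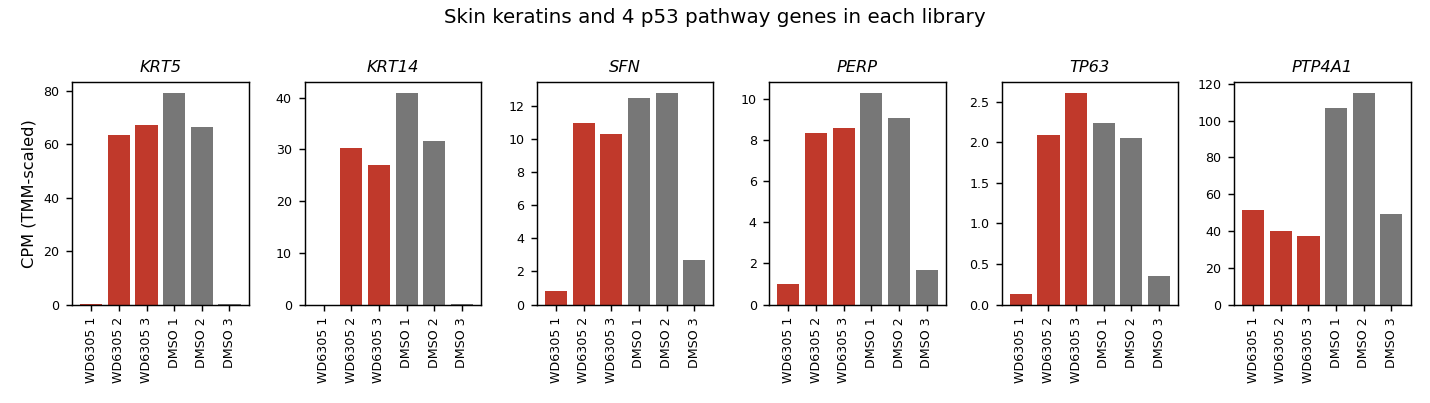
TMM-scaled CPM (vertical axes, from 0) of the keratins KRT5 and KRT14 and of SFN, PERP, TP63 and PTP4A1 in the 3 WD6305 libraries (left in each panel) and the 3 DMSO libraries. SFN, PERP and TP63 are low in WD6305 1 and DMSO 3, where KRT5 and KRT14 are near 0, while PTP4A1 is high in DMSO 1 and 2 alone.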

How the data were processed

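Mon-Mac-6 libraries (3 with 500 nM WD6305 and 3 with DMSO) were grouped by their labels. The tools HISAT2, StringTie, fastp and edgeR and the build GRCh38 are those of the submitters' processing notes, without versions or settings. Estimated counts were deposited as whole numbers and needed no rounding. Multiples of 4 are in excess (1071 to 1176 genes with a count of 4 per library, 357 to 380 with 5), so counts may overstate read pairs, and the spread between libraries served as error. FPKM, scaled by the authors to length and depth, are in the deposited table, per the file headers. The table held 0 further columns of samples.

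Genes were filtered with filterByExpr (18138 kept), scaled with TMM (factors 0.987 to 1.02) and tested with edgeR 4.0.16 quasi-likelihood under R 4.3.3, with no replicate block, two-sided, with Benjamini-Hochberg adjustment at 0.05. CPM are TMM-scaled, SEs come from the F value, and intervals are 95%. Alternatives used DESeq2 1.42.0, limma 3.58.1 on log2(FPKM + 1) or log2(FPKM + 0.1), other scalings and filters, counts divided by 4, a replicate block and fewer libraries. The fit and the site search were tested on simulated data.

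The members and lists were chosen with earlier results of these data known. Every member is named. All called members, those 1.5-fold apart and a few regulators have their value in each library. From the other lists, CDKN1A, BAX, BBC3, PMAIP1 and up to 6 genes per direction with the smallest adjusted p were to be named. 1 further gene of that rule is not reported here. SFN, PERP, TP63, TNFRSF10C, the damage kinases, CDKN2A, RAP2B, TM7SF3 and FBXO22 were named after their values were seen. Within groups, pairs of libraries differed by a chi-square per degree of freedom of 3.77 to 10.4 on counts divided by 4, above sampling noise.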

Additional observations from a re-analysis of the deposited data

How the results depend on the processing

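Each result was recomputed under 16 alternatives. The 7 rises among the members became 4 with the replicate number as a block, 4 in the 4 libraries with KRT5 RNA and 2 to 6 with 1 library left out, while the 6 falls stayed at 5 to 7 in every alternative. Of the 13 called members 9 kept their call with the block and 7 to 12 with 1 library left out. Among other p53 targets the 5 falls became 8 in the 4 libraries and 3 to 8 with 1 library left out. Among relatives and upstream genes the single rise became 0 with the block, 3 in the 4 libraries and 0 to 3 with 1 library left out. Over all genes, 1446 to 2563 rose and 1310 to 2077 fell with 1 library left out, both lowest without WD6305 3, and 1736 rose and 1468 fell with the block. Library sizes alone gave 1998 rises and 2334 falls, against 2218 and 2031, and left the members at 7 and 6. The smaller numbers of libraries and of residual degrees of freedom in these fits are part of their construction, and other causes were not tested.

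Same-numbered libraries did not deviate together (r = -0.181, 0.078 and -0.146 across 18138 genes). The largest r of any pairing was 0.265, for WD6305 1 with DMSO 3, the libraries with almost no KRT5 RNA. The remaining pairings had r from -0.162 to 0.108. Deviations were taken from the group mean, so these values depend on each other. Whether the numbers pair cultures or preparations is not recorded, and these correlations cannot decide it. None of the values that changed sign was called under any setting. POLH was -0.0048 with RLE size factors and in DESeq2, -0.02 with library sizes alone and in limma with either pseudocount, and -0.05 to 0.04 with 1 library left out. SESN1 was 0.02 in the 4 libraries and -0.03 to 0.0094 with 1 left out, and TRIAP1 -0.07 to 0.0057. With 1 left out, SFN was -0.77 to 0.2, PERP -0.69 to 0.28 and TP63 -0.48 to 0.6 on the log2 scale. TP63 was also -0.16 with the block and -0.03 in limma with a pseudocount of 0.1. EDA2R and SPATA18, with at most 16 counts in a library, did not pass the count filter over all 6 libraries. SPATA18 was tested in the 4 libraries with KRT5 RNA, without a call (log2 fold change 0.01, SE 0.91, edgeR adjusted p = 0.997).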
